A study of Mus musculus with 2 samples.

Results

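The genes described here encode the nuclear part of the oxidative phosphorylation machinery of mitochondria, in 2 single-cell RNA-Seq libraries of mouse small intestinal epithelium. They were selected on their names and on a count: symbols starting with Nduf, Sdh, Uqcr or Atp5, or with Cox followed by 4, 5, 6, 7 or 8, and at least 100 UMIs summed over both count matrices. A UMI is a molecular tag that marks 1 captured transcript. Of the 32285 genes in the matrices, 98 had such a symbol and 92 reached the minimum. By their known roles, 79 of the 92 were subunits of complexes I to V, 12 were assembly factors, and Cox7a2l, a relative of a complex IV subunit that helps join respiratory complexes, stood apart from both. The 79 comprised 37 subunits of complex I, 4 of complex II, 8 of complex III, 13 of complex IV and 17 of complex V. The member nearest to the minimum was Cox6b2 with 547 UMIs. The 6 symbols left out were Ndufa4l2 with 26 UMIs, Cox4i2 with 21, Cox6a2 with 20, Cox7b2 with 7, and Cox8b and Cox8c with 0.

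Cells were sorted for the red reporter tdTomato from mice in which the promoter of Neurog3, active in progenitors of endocrine cells, drives Cre and thereby a lasting reporter signal (Neurog3Cre, Rosa26tdtomato). The sorted cells should thus descend from cells that had Neurog3 on, although a few immune-like cells were among them. WT mice had the Cre and reporter alleles only. Mice of the library labelled NFKO had FoxO1 f/f as well, the floxed alleles of the transcription factor gene FoxO1 that the Cre should delete. Each was a single library that pooled whole small intestines of 4 to 5 mice, aged 4 to 6 weeks, so nothing below has a replicate, no test was possible, and every interval is a 95% interval for counting error only.

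Oxidative phosphorylation passes electrons from NADH and succinate through complexes I, II, III and IV to oxygen, and complex V uses the proton gradient so formed to make ATP. Complex II is encoded wholly in the nucleus, while the other complexes combine many nuclear-encoded subunits with a core of subunits encoded by mitochondrial DNA, whose gene names start with mt-. In the intestinal epithelium, absorptive enterocytes are rich in mitochondria, and Paneth cells at the crypt base are known for glycolysis and for large amounts of secreted antimicrobial peptides. Enteroendocrine cells secrete hormones, goblet cells mucus, and tuft cells are rare chemosensory cells.

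The filters left 3003 cells for WT with 77664931 UMIs, and for the library labelled NFKO 5292 cells with 106224487 UMIs, at medians of 16810 and 16590 UMIs per cell. The limit of 25% mitochondrial UMIs alone was exceeded by 35.6% of the deposited WT barcodes and by 17.3% of those in the library labelled NFKO. The libraries shared 6 barcodes, of which 4 were kept. Foxo1 itself was not lower in the library labelled NFKO, with 907 UMIs (11.7 CPM, UMIs per 1000000 UMIs) in WT and 1314 UMIs (12.4 CPM) there. Which part of the gene the deletion removes was not given in the sources used here, and 3′ counts outside a deleted part would check nothing. By Xist and Y-linked transcripts, WT held 2423 male-typed and 6 female-typed cells, and the library labelled NFKO held 348 and 4317, so that sex and genotype cannot be told apart between the libraries except among male-typed cells. Clusters were made without the genes described here and without the mt- genes, and were named from marker genes: 7 classes are used below, with 913 (WT) and 1893 (NFKO) cells called enteroendocrine-like, 1003 and 1834 goblet-like, 179 and 166 Paneth-like, 271 and 367 enterocyte-like, 281 and 140 stem-like, 100 and 280 cycling-like, and 88 and 141 tuft-like. A further 17 and 5 immune-like cells and the cells of 2 unnamed clusters entered only the sums over all kept cells. The summed level of the enteroendocrine markers in enteroendocrine-like cells was 73355 CPM in WT against 94152 in the library labelled NFKO, and that of the goblet markers in goblet-like cells was 134613 against 197460 CPM. Paneth markers in goblet-like cells summed to 29946 against 18094 CPM, and enteroendocrine markers to 130 against 605 CPM. The part of these differences in the values below was not tested.

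The summed level of the 79 subunit genes differed widely between cell classes and ran in a like order in both libraries. In WT these genes took 5.27% of the UMIs of enterocyte-like cells, 4.23% in stem-like, 3.44% in cycling-like, 3.08% in goblet-like, 2.64% in tuft-like, 2.26% in enteroendocrine-like and 0.591% in Paneth-like cells. In the library labelled NFKO the shares were 5.69%, 4.60%, 3.83%, 2.90%, 3.95%, 2.49% and 0.632% in the same order of classes. Tuft-like cells stood between goblet-like and enteroendocrine-like cells in WT but between stem-like and cycling-like cells in the library labelled NFKO, and the remaining 6 classes kept their order. The 2 enterocyte-like clusters lay far apart in WT: cluster 14, led by Gsdmc4, Apol10a and Car4, had 5.58%, while cluster 9, led by Apoa4, Apoa1 and Lct, had 2.40%, below the goblet-like cells. Cluster 14 got its name from only 3 of the 9 enterocyte markers, and cluster 9 from all 9. Their cells had medians of 34999 and 4408.5 UMIs. The 9 enterocyte markers summed to 3371 CPM in the WT class against 21141 CPM for the 8 goblet markers, and to 26434 against 11518 CPM in the library labelled NFKO. Enterocyte-like over Paneth-like cells gave a ratio of 8.91 (8.85 to 8.98) in WT and 9.01 (8.94 to 9.08) in the library labelled NFKO.

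The size of that span moved with the settings. It was 5.02 in WT against 5.88 in the library labelled NFKO with equal weight per cell, 5.2 against 5.34 with no mitochondrial limit, 6.25 against 6.28 with another seed of the clustering, and 5.57 against 4.53 with classes taken from marker scores. The transcripts used as the total moved it further. In Paneth-like cells the 50 most abundant nuclear genes, led by the defensin genes Defa24, Defa30 and Defa22, took 81.9% of WT UMIs and 80.6% in the library labelled NFKO. With those genes and the mt- genes taken out of the total of each class, the subunits made up 8.12% of the remaining UMIs in WT enterocyte-like cells and 3.54% in Paneth-like cells, a ratio of 2.29, and in the library labelled NFKO 8.50% and 3.46%, a ratio of 2.46. On that scale Paneth-like cells lay above enteroendocrine-like cells in WT (3.19%) and below them in the library labelled NFKO (3.56%).

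**Figure D1:**
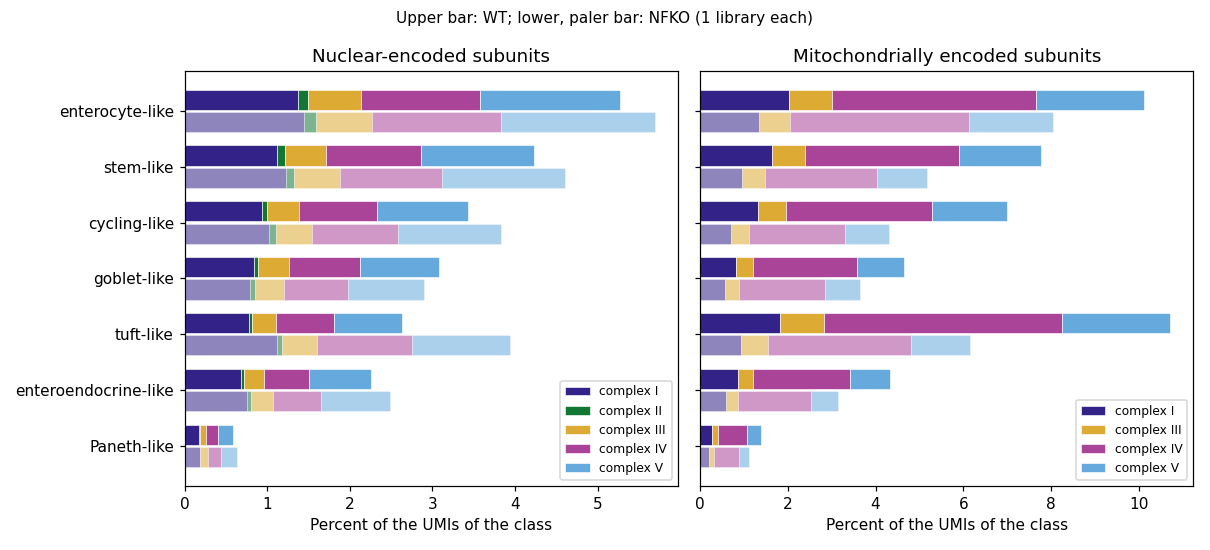
Percent of the UMIs of each cell class taken by nuclear-encoded subunits (left) and by the 13 mitochondrially encoded subunits (right), stacked by complex, with WT as the upper and the library labelled NFKO as the lower, paler bar. Nuclear-encoded subunits run from 5.27% in WT enterocyte-like to 0.591% in WT Paneth-like cells, and the mitochondrial bars are shorter in the library labelled NFKO in each of the 7 classes.

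Over the 7 classes and both libraries, complex V made up 30.3% to 33.8% of the summed nuclear UMIs, complex I 25.4% to 30.4%, complex IV 23.4% to 29.1%, complex III 10.6% to 14.3% and complex II, with its 4 genes, 1.59% to 2.59%. The enteroendocrine-like cells held the highest share of complex I, 30.3% in WT against 30.4% in the library labelled NFKO, and tuft-like cells of the library labelled NFKO the highest share of complex IV. In Paneth-like cells complex III had its highest share, 13.7% and 14.3%. Complex II was highest in enterocyte-like cells, at 2.26% and 2.59%.

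Most subunits shared the class of their highest level. Among the 6 classes with at least 100 cells in each library, which leaves out tuft-like cells, and on the total of all UMIs, all 79 subunits had their lowest level in Paneth-like cells in both libraries. Enterocyte-like cells held the highest level of 76 subunits in WT and of 69 in the library labelled NFKO, where 9 peaked in stem-like cells. That class pools cluster 14, named from 3 enterocyte markers, and cluster 9, named from 9, in which subunits took 5.58% and 2.40% of UMIs in WT. Single subunits were not ranked within these clusters. The ratio of the highest to the lowest class had a median of 9.31 in WT (range 2.84 to 34.7) and 9.20 in the library labelled NFKO (3.23 to 49.2). With the mt- genes and the 50 most abundant genes of each class out of the total, 28 subunits were lowest in Paneth-like and 47 in enteroendocrine-like cells in WT, against 47 and 30 in the library labelled NFKO. On that scale enterocyte-like cells held the highest level of 75 and 72 subunits, and the median ratio of the highest to the lowest class was 2.75 and 2.71.

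**Figure D2:**
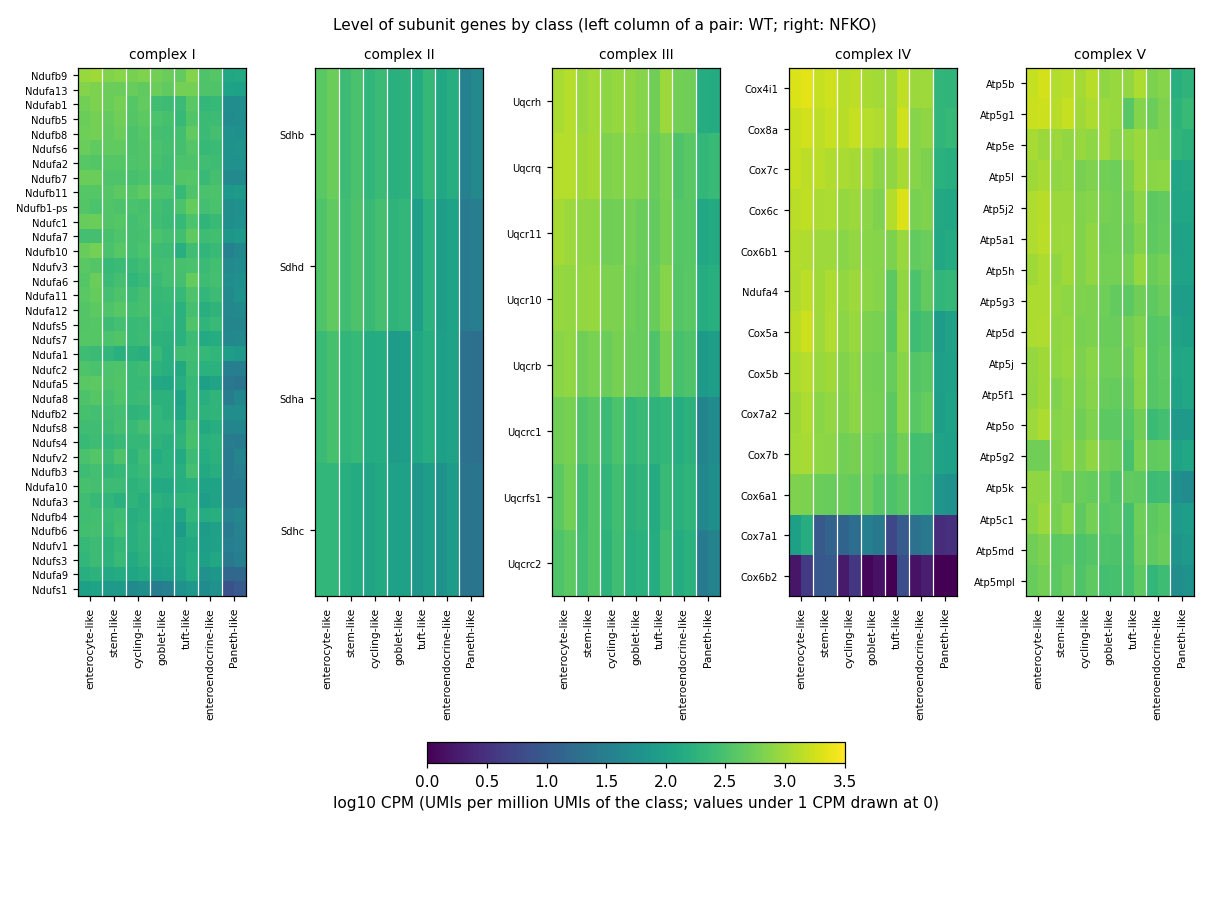
Level of the subunit genes in 7 cell classes, as log10 CPM, by complex, with the left column of each pair for WT and the right for the library labelled NFKO. Paneth-like columns are darkest for nearly every gene, and Cox7a1 and Cox6b2 stand apart from the remaining complex IV genes, with 97.7 and 1.64 CPM in WT enterocyte-like cells.

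In complex I, the NADH dehydrogenase, the most counted members were the accessory subunits Ndufb9 and Ndufa13. Ndufb9 had 482 CPM over all WT cells and 502 CPM in the library labelled NFKO, and Ndufa13 had 414 and 398 CPM. The fewest UMIs came from Ndufs1, which carries iron-sulfur clusters of the electron path, with 43.4 and 49.5 CPM, and from Ndufa9, with 83.5 and 95.3 CPM. 3′ tag counts do not grow with transcript length, but whether these genes were captured equally well was not tested. Ndufa1, a small accessory subunit encoded on the X chromosome, had the narrowest range of all subunits in both libraries, with WT levels of 257 CPM in WT enterocyte-like, 214 in enteroendocrine-like and 90.3 in Paneth-like cells. Ndufa7 was likewise flat, with WT levels from 258 to 318 CPM in 5 of the 6 classes and 71.2 CPM in Paneth-like cells. Ndufa5 was steep, with 404 CPM in WT enterocyte-like against 98.6 in enteroendocrine-like and 25.5 in Paneth-like cells. Ndufb1-ps was counted with complex I by its name, although GENCODE annotates it as a noncoding RNA of a bidirectional promoter.

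Complex II oxidises succinate and also works in the TCA cycle. Its iron-sulfur subunit Sdhb had 169 CPM over all WT cells and 196 in the library labelled NFKO, and its membrane anchor Sdhd 166 and 193 CPM. The flavoprotein Sdha had 109 and 116 CPM, and the anchor Sdhc 96.8 and 101 CPM. In WT enterocyte-like cells the 4 genes lay between 208 and 398 CPM, and in Paneth-like cells between 20.9 and 34.4 CPM.

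In complex III, which passes electrons to cytochrome c, the hinge subunit Uqcrh led with 667 CPM in WT against 698 in the library labelled NFKO, followed by Uqcrq with 642 and 626 CPM. The Rieske iron-sulfur protein Uqcrfs1 (182 and 225 CPM) and the core protein Uqcrc2 (165 and 197 CPM) had the fewest UMIs. The core protein Uqcrc1 was among the genes with the widest range between classes, from 547 CPM in WT enterocyte-like to 37.9 CPM in Paneth-like cells.

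Complex IV, cytochrome c oxidase, holds several subunits with tissue-specific isoforms. The isoforms known from many tissues dominated: Cox4i1 had 1038 CPM in WT against 1107 in the library labelled NFKO, while its counterpart Cox4i2 had 9 and 11 UMIs. Cox8a had 1011 and 1114 CPM, and Cox8b and Cox8c were listed at 0 in both libraries. Cox6a1 had 383 and 346 CPM against 16 and 3 UMIs for the muscle isoform Cox6a2. Cox6b1 had 651 and 663 CPM against 2.58 and 2.50 CPM for Cox6b2, the isoform known from testis. Cox6b2 had its highest WT level in stem-like cells, with 8.90 CPM and 9.75 in the library labelled NFKO, against 1.46 and 1.98 CPM in enteroendocrine-like cells. Ndufa4, once assigned to complex I and now to complex IV, had 661 and 697 CPM, and its relative Ndufa4l2 had 1 and 22 UMIs, a ratio of 16.1 with a counting interval from 2.60 to 664.

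Cox7a1, the isoform of subunit 7a known from heart and muscle, differed more between classes than any other subunit. It had 97.7 CPM in WT enterocyte-like cells, 32.1 in goblet-like, 21.2 in enteroendocrine-like, 13.3 in cycling-like, 9.40 in stem-like and 2.81 in Paneth-like cells. In the library labelled NFKO it had 152 CPM in enterocyte-like and 3.10 in Paneth-like cells. Its counterpart Cox7a2 had 1013 CPM in WT enterocyte-like and 90.5 CPM in Paneth-like cells, so Cox7a1 stayed far below it in each class. Cox7a2l ran against the common order: its WT level was highest in enteroendocrine-like cells, 386 CPM, against 273 in enterocyte-like and 178 in goblet-like cells. Cox5a, which binds at the matrix side of the enzyme, spanned 1368 to 85.4 CPM between WT enterocyte-like and Paneth-like cells.

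Complex V, the ATP synthase, was led by Atp5b, the catalytic beta subunit, with 803 CPM in WT against 919 in the library labelled NFKO, and by Atp5g1, a gene of the rotating c ring, with 842 and 895 CPM. The 3 genes Atp5g1, Atp5g2 and Atp5g3 encode the same mature c subunit but differed in where they were high. In WT enterocyte-like cells Atp5g1 had 1654 CPM, Atp5g3 1157 and Atp5g2 547. In enteroendocrine-like cells they lay close together, with 521 CPM for Atp5g1, 430 for Atp5g3 and 438 for Atp5g2. Atp5g2 was the only one of the 3 with a higher WT level in stem-like cells (689 CPM) than in enterocyte-like cells. Atp5k, a small membrane subunit, was steep, with 842 CPM in WT enterocyte-like and 57.1 in Paneth-like cells. Atp5md (321 and 389 CPM over all cells) and Atp5mpl (266 and 312 CPM), also small membrane proteins, were the least counted members of the complex.

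The 13 mitochondrially encoded subunits followed a partly different order. In WT they took 10.7% of UMIs in tuft-like, 10.1% in enterocyte-like, 7.76% in stem-like, 6.997% in cycling-like, 4.66% in goblet-like, 4.32% in enteroendocrine-like and 1.39% in Paneth-like cells. In the library labelled NFKO the same classes had 6.16%, 8.03%, 5.17%, 4.30%, 3.65%, 3.14% and 1.12%. The share was lower in the library labelled NFKO in each of the 7 classes. The ratio of nuclear to mitochondrial subunit UMIs lay between 0.246 (tuft-like) and 0.661 (goblet-like) in WT and between 0.563 (Paneth-like) and 0.891 (cycling-like) in the library labelled NFKO, and was higher there in each class. Ratios are given below as the library labelled NFKO over WT.

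All 13 mt- genes had a ratio below 1 in each of the 7 classes, from 0.288 to 0.967. Over all kept cells mt-Co3, a core subunit of complex IV, had the ratio nearest to 1, with 8075 CPM in WT against 6982 in the library labelled NFKO, at a ratio of 0.865 (0.862 to 0.868). The lowest was that of mt-Atp8, a small subunit of complex V, with 516 and 183 CPM and a ratio of 0.355 (0.349 to 0.361), and mt-Atp8 had the lowest ratio of the 13 genes in 7 of 7 classes. Its coding sequence overlaps that of mt-Atp6, which had 11481 and 7966 CPM and a ratio of 0.694, so reads from the shared stretch cannot be placed on one gene alone, and the same holds for mt-Nd4l and mt-Nd4. By complex, the summed ratio over all cells was 0.634 for the complex I genes, 0.731 for mt-Cytb of complex III, 0.803 for complex IV and 0.679 for complex V. The share of mitochondrial transcripts in a droplet also moves with the condition of the cell and with the limit of 25% set here, and the part of either in this difference was not tested. With the limit set at 10% the ratio was 0.809 in enteroendocrine-like cells, 0.844 in goblet-like and 0.791 in Paneth-like cells, against 0.727, 0.783 and 0.809 at 25%.

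In enteroendocrine-like cells, the nuclear-encoded subunits were slightly higher in the library labelled NFKO while the mitochondrial ones were lower. The summed nuclear level was 22554 CPM in WT against 24890 CPM in the library labelled NFKO, at a ratio of 1.10 (1.10 to 1.11), and the mitochondrial ratio was 0.727 (0.724 to 0.729). By complex the nuclear ratio was 1.11 for complex I, 1.21 for complex II, 1.09 for complex III, 1.08 for complex IV and 1.12 for complex V. Of 91 members with at least 100 UMIs in these cells, 80 had a ratio above 1, with a median of 1.11 (range 0.839 to 1.39) against a median of 0.979 for the 11632 genes so counted. Of those 11632 genes, 5339 lay above 1. No member differed by at least 1.5-fold, while 5.3% of all genes were that much higher and 5.05% that much lower.

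The highest ratios there were those of Ndufa4, with 326 CPM in WT against 454 in the library labelled NFKO (ratio 1.39, 1.34 to 1.45), Sdhc, with 60.6 and 82.6 CPM (1.36, 1.2505 to 1.488), and Atp5g1, with 521 and 676 CPM (1.30, 1.26 to 1.34). The lowest were the complex I assembly factors Ndufaf6, with 13.9 and 11.7 CPM (0.839, 0.691 to 1.02), and Ndufaf2, with 18.4 and 15.8 CPM (0.856, 0.724 to 1.01), whose intervals include 1. Cox7c, a small subunit of complex IV, followed with 735 and 647 CPM (0.881, 0.858 to 0.904). Among male-typed cells alone, 759 in WT against 130 in the library labelled NFKO, the nuclear ratio was 1.05 (1.04 to 1.06) and the mitochondrial one 0.791 (0.785 to 0.798).

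The nuclear ratio varied among the enteroendocrine-like clusters. Of the 8 clusters with enough cells in both libraries, 7 had a nuclear ratio above 1, and the median was 1.17. The cluster led by Gip, the hormone gene of K cells, had 2.37% in WT against 2.36% in the library labelled NFKO (ratio 0.994), and the cluster led by Gcg, the glucagon precursor gene of L cells, had 2.24% and 2.79% (1.24). The cluster led by Nts, the neurotensin gene of N cells, stood apart with 0.683% in WT against 2.16% in the library labelled NFKO, at a ratio of 3.16, and it held 40 and 91 cells. Its WT cells had 11.7% mitochondrial UMIs against 4.04% in the library labelled NFKO. Without that cluster the enteroendocrine-like nuclear ratio was 1.10.

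In goblet-like cells the summed nuclear level was lower in the library labelled NFKO, with 30770 CPM in WT and 29018 CPM there, a ratio of 0.943 (0.940 to 0.946), and the mitochondrial ratio was 0.783 (0.781 to 0.785). Complex IV had a ratio of 0.909, complex III 0.941, complex I 0.949 and complex V 0.963, while complex II was at 1.06 (1.04 to 1.09). Of 91 members counted, 28 had a ratio above 1, with a median of 0.963 against 1.01 over 10393 genes. All 12 counted members of complex IV were below 1. Of the 10393 genes, 5380 lay above 1 and 5013 below. No member passed 1.5-fold, where 6.19% of all genes were that much higher and 4.23% lower. Ndufa1 had the lowest ratio, with 235 CPM in WT against 169 in the library labelled NFKO (0.719, 0.693 to 0.745), before Cox7c with 1001 and 769 CPM (0.768, 0.755 to 0.781) and the complex IV subunit Cox6a1 with 502 and 389 CPM (0.774, 0.756 to 0.793). The highest were the assembly factor Ndufaf3, with 27.7 and 33.6 CPM (1.21, 1.10 to 1.34), the complex I subunit Ndufa6, with 241 and 280 CPM (1.16, 1.13 to 1.2), and Ndufv2, an iron-sulfur subunit at the NADH end of complex I, with 149 and 170 CPM (1.14, 1.10 to 1.19).

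The direction in goblet-like cells changed with the clusters counted, which the libraries filled unequally, and the part of this in the ratio was not tested. Cluster 0, led by Ido1 and Ly6m, held 86 cells in WT but 793 in the library labelled NFKO. It was low in nuclear subunits, at 1.35% and 1.18%, a ratio of 0.875. Its cells had a median of 7019 UMIs, against 26422, 29348.5 and 24322 in clusters 1, 2 and 3. Cluster 3, led by Edn2 and Areg with the heat shock genes Hspa1a and Hspa1b among its leading genes, held 600 and 15 cells and had 3.09% in WT. Clusters 1 and 2 had 3.13% and 3.28% in WT and 3.62% and 3.35% in the library labelled NFKO, ratios of 1.16 and 1.02, with mitochondrial ratios of 1.02 and 0.908. Without cluster 0 the goblet-like nuclear ratio turned to 1.11, and without clusters 0 and 3 it was 1.09 and the mitochondrial one 0.970. When cells were weighted equally the nuclear ratio was 0.832, and among male-typed cells, 842 and 125 in number, it was 0.866 (0.860 to 0.873).

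**Figure D3:**
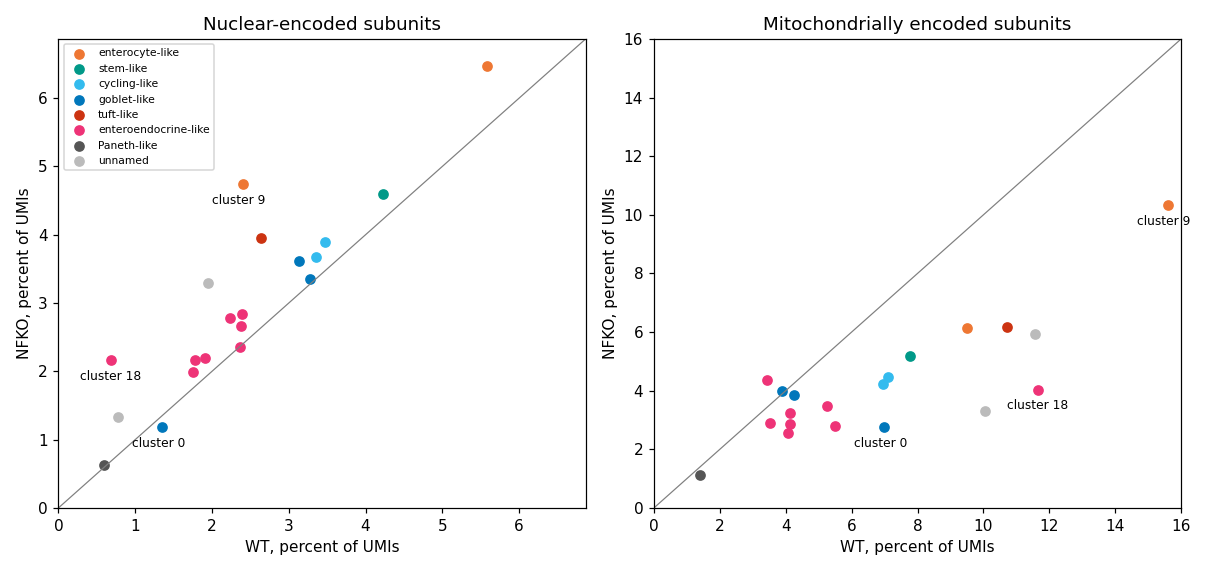
Percent of UMIs from nuclear-encoded (left) and mitochondrially encoded (right) subunits in each cluster with enough cells in both libraries, WT on the horizontal and the library labelled NFKO on the vertical axis, with the grey line at equality. Of 20 clusters, 18 lie above the line on the left and 18 below it on the right, and the goblet-like cluster 0, enterocyte-like cluster 9 and enteroendocrine-like cluster 18 are marked.

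In Paneth-like cells the summed nuclear level was 5911 CPM in WT against 6319 CPM in the library labelled NFKO, at a ratio of 1.07 (1.06 to 1.08), and the mitochondrial ratio was 0.809 (0.804 to 0.814). Of 87 members counted, 61 were above 1 with a median of 1.06, below the median of 1.08 over 6444 genes, which is 0.11 on the log2 scale, and 2462 of these genes lay below 1. Relative to that median the median member stood at -0.03 on the log2 scale, and 37 of the 87 lay above the median of all genes. The sum turned to 0.989 with median-of-ratios size factors and to 0.976 with the mt- and the 50 most abundant genes out of the total, so it had no direction that held under each scaling. No member passed 1.5-fold, where 9.11% of all genes were that much higher and 4.9% lower. The highest ratio was that of Ndufv2, with 26.5 CPM in WT against 38.6 in the library labelled NFKO (1.45, 1.27 to 1.66). Ndufaf3 had 4.39 and 6.02 CPM (1.37, 0.979 to 1.92) and Sdhaf2, an assembly factor of complex II, 6.24 and 8.51 CPM (1.36, 1.03 to 1.80). Among the lowest were Ndufa1, with 90.3 and 76.3 CPM (0.845, 0.777 to 0.918), and Atp5k, with 57.1 and 49.4 CPM (0.864, 0.779 to 0.959).

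In enterocyte-like cells the nuclear ratio was 1.08 (1.08 to 1.08) and the mitochondrial one 0.795 (0.792 to 0.798). Cox7a1 was the only member past 1.5-fold, with a ratio of 1.56, of 91 counted, where 8.93% of all genes were that much higher and 7.94% lower. The marker levels given above show that the class did not hold like cells in the 2 libraries. In cluster 9 nuclear subunits were at 2.40% in WT against 4.74% in the library labelled NFKO, at a ratio of 1.98, with 15.6% and 10.3% mitochondrial UMIs. In cluster 14 the shares were 5.58% and 6.47%, a ratio of 1.16. The part of cell condition in the value of cluster 9 was not tested.

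Tuft-like cells showed the largest difference of the 7 classes. Nuclear subunits made up 2.64% of UMIs in WT against 3.95% in the library labelled NFKO, at a ratio of 1.498 (1.47 to 1.52), and mitochondrial ones 10.7% and 6.16%, a ratio of 0.575 (0.570 to 0.580). Of 84 members counted, 44 were at least 1.5-fold higher and 0 that much lower, where 21.9% of all genes were at least that much higher and 12.7% lower, and the median member ratio was 1.52 against 1.09 over 4279 genes. Named after their values were seen, Cox5a had 388 CPM in WT against 897 in the library labelled NFKO (2.31, 2.04 to 2.64), Ndufa4 had 410 and 839 CPM, and Atp5k 447 and 434 CPM (0.970, 0.853 to 1.11). Cox6c, a small subunit of complex IV, was the most counted complex IV gene in these cells, with 1258 and 2050 CPM, and exceeded its level in enterocyte-like cells of the same library labelled NFKO, 1485 CPM.

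The tuft-like cells of WT were also of lower depth and higher mitochondrial share, with a median of 6315 UMIs against 16923. In the tuft-like cells with at most 10% mitochondrial UMIs, 32 in WT against 118 in the library labelled NFKO, the nuclear ratio was 1.26 and 14 of 83 members counted, or 16.9%, were at least 1.5-fold higher, where 13.6% of all genes were. In those with at least 5000 UMIs, 51 and 127 in number, it was 1.35 with 25 of 84 members, or 29.8%, against 15.5% of all genes. Over all tuft-like cells, mitochondrial ribosomal protein genes had a median ratio of 1.53 and cytosolic ones 1.39. Tuft markers summed to 7677 CPM in WT against 7898 CPM in the library labelled NFKO, and enteroendocrine markers in the same cells to 522 against 3286 CPM, whose part in these values was not tested.

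**Figure D4:**
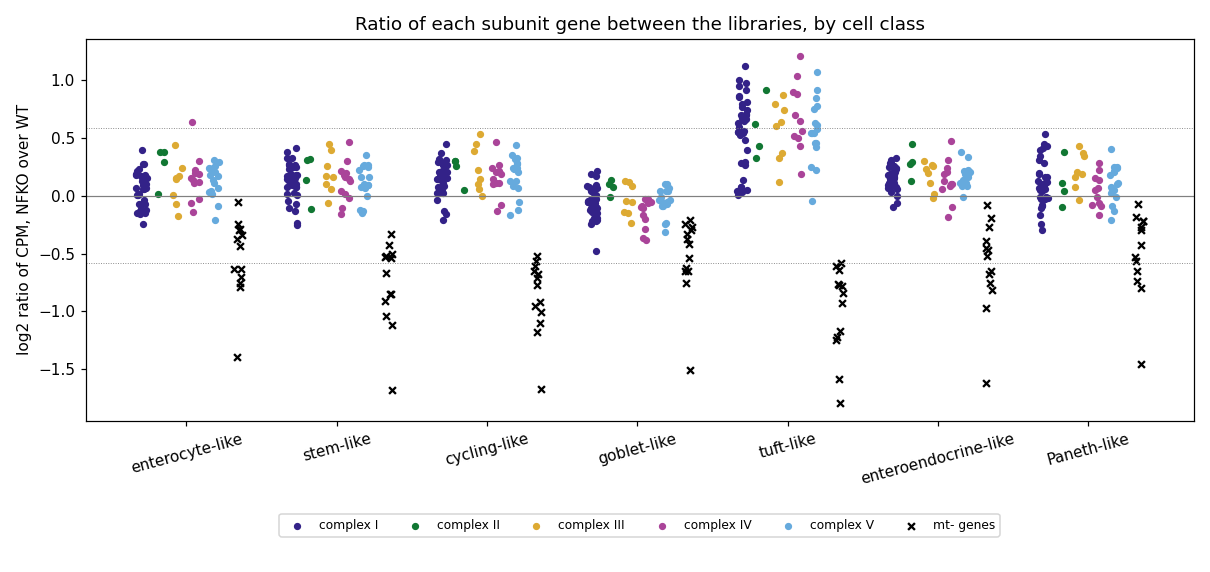
Ratio of each counted subunit gene between the libraries (log2 of CPM in the library labelled NFKO over WT) in 7 cell classes, with points coloured by complex, crosses for the 13 mt- genes, and dotted lines at 1.5-fold. The crosses all lie below 0, and the nuclear-encoded points spread closely about their class median except in tuft-like cells. There 40 of 77 subunits are past 1.5-fold, where 21.9% of all genes counted are at least that much higher and 12.7% lower.

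Some members lay on the same side of 1 in most classes. Of 84 members with at least 100 UMIs in all 7 classes, 21 had a ratio above 1 in 7 of 7 classes, 0 below 1 in 7 of 7, and 6 below 1 in 6 of 7, which is 25%, 0% and 7.14% of them. Of the 3942 genes so counted, 16.7% were above 1 in 7 of 7 classes, 12.7% below 1 in 7 of 7 and 11.1% below 1 in 6 of 7. The classes share the same pair of libraries, so these counts are a description and not independent looks. The 21 comprised 8 of the 37 counted members of complex I, 2 of 4 of complex II, 3 of 8 of complex III, 0 of 11 of complex IV, 6 of 17 of complex V, and 2 assembly factors. They included the iron-sulfur proteins Ndufs1, Ndufv2, Sdhb and Uqcrfs1, the core proteins Uqcrc1 and Uqcrc2, and the ATP synthase subunits Atp5a1, Atp5b and Atp5c1 of the catalytic head. Among the 21 were also the accessory subunits Ndufa6, Ndufa9, Ndufa11 and Ndufa12 and the complex V members Atp5h, Atp5j and Atp5mpl. The iron-sulfur proteins Ndufs7 and Ndufs8 were not among them, nor were Atp5d and Atp5e of the same head. The 6 were Cox7c, Atp5e, Ndufa1, Atp5k, Cox6a1 and the assembly factor Ndufaf8, most of them small subunits. Cox7c ran from 0.768 in goblet-like to 1.35 in tuft-like cells with a median of 0.897, and Uqcrfs1 from 1.09 to 1.56 with a median of 1.36.

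Transcript length was set beside these ratios. Across 91 members, the Spearman correlation of the median annotated transcript length with the ratio was 0.19 in enteroendocrine-like and 0.42 in goblet-like cells, and 0.25 across 87 members in Paneth-like cells. Across 83 cytosolic ribosomal protein genes, which are also short and abundant, it was 0.33, 0.38 and 0.27, and across all protein-coding genes counted -0.23, -0.09 and -0.22. With the members in 3 groups from short to long transcripts, the median ratio was 0.930, 0.941 and 1.01 in goblet-like, 1.11, 1.09 and 1.15 in enteroendocrine-like, and 1.05, 1.04 and 1.12 in Paneth-like cells, so it did not climb from group to group in the last 2 of these. Genes are not independent replicates and share the 2 libraries, and the part of length in the order of the ratios was not tested.

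Promoter windows are shown for examples, which are not all at the ends of that order. Cox7c, Cox6a1 and Atp5k come from the group lower in 6 of 7 classes, Uqcrfs1 and Ndufv2 from the group higher in all 7. Cox7a1 was added as the gene with the widest range between classes. Each window runs from 250 bases before to 50 bases after the annotated start, from RefSeq on GRCm38.p6, read 5′ to 3′ on the gene's strand. The positions are chr13:86046746-86047045 on the minus strand for Cox7c, chr5:115348909-115349208 (minus) for Cox6a1, chr5:108434350-108434649 (minus) for Atp5k, chr13:30545267-30545566 (minus) for Uqcrfs1, chr17:66101510-66101809 (minus) for Ndufv2 and chr7:30183921-30184220 (plus) for Cox7a1. Capitals mark matches to motifs of factors known to bind promoters of such genes, searched on both strands.
Cox7c: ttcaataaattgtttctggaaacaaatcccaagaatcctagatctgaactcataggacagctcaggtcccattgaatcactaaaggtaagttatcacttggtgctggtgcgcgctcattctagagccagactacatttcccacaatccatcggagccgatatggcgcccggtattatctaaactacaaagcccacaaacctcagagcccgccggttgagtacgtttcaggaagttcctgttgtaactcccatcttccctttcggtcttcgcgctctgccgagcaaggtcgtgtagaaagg
Cox6a1: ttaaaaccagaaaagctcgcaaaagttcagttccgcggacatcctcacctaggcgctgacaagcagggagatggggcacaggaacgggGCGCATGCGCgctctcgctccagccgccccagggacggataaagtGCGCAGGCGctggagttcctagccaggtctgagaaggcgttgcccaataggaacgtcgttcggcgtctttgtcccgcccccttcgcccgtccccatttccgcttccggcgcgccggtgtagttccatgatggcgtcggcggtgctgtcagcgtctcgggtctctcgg
Atp5k: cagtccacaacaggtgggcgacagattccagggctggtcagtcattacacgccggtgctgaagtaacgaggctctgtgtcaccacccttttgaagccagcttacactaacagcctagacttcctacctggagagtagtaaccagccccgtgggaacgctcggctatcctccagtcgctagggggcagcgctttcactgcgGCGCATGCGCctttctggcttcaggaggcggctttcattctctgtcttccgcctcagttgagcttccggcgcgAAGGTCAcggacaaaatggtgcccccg
Uqcrfs1: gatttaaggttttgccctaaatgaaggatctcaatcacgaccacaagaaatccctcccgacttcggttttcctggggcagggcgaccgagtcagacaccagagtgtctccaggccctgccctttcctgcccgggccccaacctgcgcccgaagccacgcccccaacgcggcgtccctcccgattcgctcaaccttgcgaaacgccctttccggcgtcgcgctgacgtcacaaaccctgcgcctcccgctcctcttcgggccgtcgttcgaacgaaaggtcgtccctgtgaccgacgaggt
Ndufv2: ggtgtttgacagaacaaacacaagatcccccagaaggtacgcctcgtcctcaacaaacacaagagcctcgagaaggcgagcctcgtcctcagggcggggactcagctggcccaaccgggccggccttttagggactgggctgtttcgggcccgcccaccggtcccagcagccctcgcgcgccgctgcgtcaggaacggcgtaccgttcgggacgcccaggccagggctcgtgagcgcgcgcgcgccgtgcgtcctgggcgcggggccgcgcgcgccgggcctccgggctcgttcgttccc
Cox7a1: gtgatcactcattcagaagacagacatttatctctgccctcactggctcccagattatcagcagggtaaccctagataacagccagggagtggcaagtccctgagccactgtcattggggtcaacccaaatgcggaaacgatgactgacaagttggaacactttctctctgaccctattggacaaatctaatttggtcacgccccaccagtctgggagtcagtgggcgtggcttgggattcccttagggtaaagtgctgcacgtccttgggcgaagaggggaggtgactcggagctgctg
The motifs were GCGCANGCG for NRF1, CCGGAAGT for GABPA, AAGATGGCG for YY1 and AAGGTCA for ERRA. The NRF1 letters are nearly the same on both strands, so that 1 site can match on each. Of the 92 members, 77 had a promoter entry, and the 15 without include Ndufs1, Sdhc, Uqcrc2, Cox4i1, Cox6c, Ndufb9 and Atp5a1. The NRF1 letters stood in at least 1 window of 31.2% of the 77 members, against 7.03% of the 27025 genes with an entry. Those of YY1 did so for 10.4% against 1.64%, of ERRA for 10.4% against 5.38% and of GABPA for 6.49% against 4.31%. The 27025 genes include those not expressed in these cells. At least 1 of the 4 motifs stood in 46.8% of members and in 16.8% of all genes. Of the 6 windows shown, Cox6a1 held the NRF1 letters at 162 and 117 bases before the start, and Atp5k held them at 50 bases before the start and the ERRA letters 24 bases into the transcript. The letters of the 4 motifs were not in the windows of Cox7c, Uqcrfs1, Ndufv2 and Cox7a1. These examples do not stand for their groups. In the lower group Ndufa1 also held none of the letters, and Atp5e held only those of ERRA. In the higher group Atp5c1, Uqcrc1 and Sdhd held the NRF1 letters, while Atp5b and Sdhb held none of the motifs. These are matches of letters and say nothing on binding in these cells.

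The X-linked members could also differ with the sex of the cells. Over all cells Ndufb11, a complex I subunit, had 282 CPM in WT against 320 in the library labelled NFKO (ratio 1.14), Cox7b, of complex IV, 492 and 466 CPM (0.947), and Ndufa1 192 and 175 CPM (0.911). Among male-typed cells the ratios were 1.203 (1.16 to 1.2508), 1.08 (1.05 to 1.11) and 0.985 (0.935 to 1.04), against 1.16 for the sum of the 79 subunits. In male-typed goblet-like cells Ndufa1 was at 0.753 (0.687 to 0.825). Sums over all cells mix the classes, and in male-typed enteroendocrine-like cells the ratios of Ndufb11, Ndufa1 and Cox7b were 1.03, 1.01 and 0.978.

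To compare single cells, each was thinned to the same depth. Thinned to 2000 UMIs, the median enteroendocrine-like cell held 44 nuclear subunit UMIs in WT (quartiles 33 and 54) and 49 in the library labelled NFKO (39 and 59), and their unthinned medians were 2.22% and 2.49% of UMIs. The median goblet-like cell held 59 (45 and 71) and 53 (19 and 72). Paneth-like cells held 12.5 (7 and 22) and 12 (9 and 18.2). Thinning left out 1 and 12 enteroendocrine-like, 1 and 42 goblet-like and 1 and 2 Paneth-like cells. These quartiles describe cells of a single library each.

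Over all barcodes that met the minimums of genes and UMIs, before the limit on mitochondrial UMIs, the nuclear share of the non-mitochondrial UMIs first climbed and then dropped with the mitochondrial share of the barcode. In WT it was 2.43% in barcodes with under 5% mitochondrial UMIs, 4.07% from 5 to 10%, 3.95% from 10 to 25%, 2.54% from 25 to 50% and 1.43% above 50%. In the library labelled NFKO it was 2.84%, 4.49%, 3.64%, 2.62% and 1.63%. Cytosolic ribosomal protein transcripts showed a like course, from 20.97% of non-mitochondrial UMIs at 5 to 10% in WT to 2.78% above 50%. Of the WT barcodes 47.6% were under 5%, against 73.2% in the library labelled NFKO, so the 2 libraries filled these bins unequally.

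**Figure D5:**
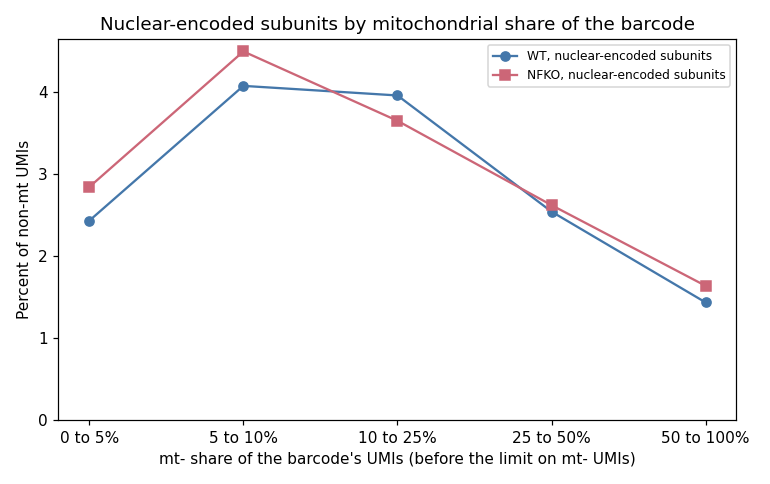
Nuclear-encoded subunits as a percent of non-mitochondrial UMIs in barcodes grouped by their share of mt- UMIs, for WT (circles) and the library labelled NFKO (squares), before the limit on mt- UMIs. Both lines peak at 5 to 10%, at 4.07% and 4.49%, and end at 1.43% and 1.63%.

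Genes that work beside these complexes came from lists drawn up on their known roles. Of 15 glycolysis genes counted in enteroendocrine-like cells, 12 had a ratio above 1, as had 5339 of all 11632 genes counted there. At least 1.5-fold higher were 4 of the 15, Pfkp, Pgk1, Pkm and Ldha, and the summed ratio of the list was 1.31 (1.29 to 1.33). For this and the lists that follow, the shares of all genes at least 1.5-fold higher were 5.3%, 6.19% and 9.11% in the same 3 classes as before, and at least 1.5-fold lower 5.05%, 4.23% and 4.9%, with enteroendocrine-like cells first and Paneth-like cells last. In goblet-like cells the glycolysis sum was at 1.23 with 2 genes past 1.5-fold, Hk1 and Pkm, and in Paneth-like cells at 1.30 with Pfkp and Aldoa. The 14 TCA cycle genes summed to 1.10, 1.01 and 1.21 in the 3 classes, with Idh3a and Mdh2 past 1.5-fold in Paneth-like cells. Fatty acid oxidation was at 0.987, 0.862 and 0.805, and 2 of its 12 genes, Cpt1a, which admits fatty acids to mitochondria, and Acadl, were at least 1.5-fold lower in all 3 classes. Cytochrome c and the carriers had sums of 1.14, 1.05 and 1.26, with Slc25a4, an ADP/ATP carrier, past 1.5-fold in goblet-like and Vdac3 and Ucp2 in Paneth-like cells.

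Further assembly factors, 38 genes outside the selected names, summed to 1.04, 0.952 and 1.13, near the values of the subunits. Regulators of mitochondrial genes, 16 in the list, summed to 0.890, 0.957 and 0.851, with Yy1 and Tfam at least 1.5-fold lower in Paneth-like cells. Mitochondrial ribosomal protein genes had median ratios of 1.07, 0.998 and 1.11, and cytosolic ones 0.882, 0.824 and 0.989. Heat shock and immediate early genes, which can move with the handling of cells, had summed ratios of 0.629, 0.674 and 0.743 in the same classes, and were lower in the library labelled NFKO in each of the 7. Their part in the values above was not tested.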

How the data were processed

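The authors deposited unnormalized UMI count matrices of 32285 genes, made with the 10x Genomics 3′ kit, and the submitters' processing notes name Cell Ranger 5.0.1 and mm10. Kept barcodes had 500 genes or more, 1000 UMIs or more and no more than 25% mt- UMIs, and the highest doublet scores, from simulated doublets, were removed at 0.8% per 1000 barcodes. Both libraries were clustered together (Leiden, leidenalg 0.10.2, resolution 0.8, 2000 variable genes, 30 principal components, 20 neighbours). Left out of the clustering were 171 genes. They were those with the selected names, the mt- genes, the further assembly factors, cytochrome c and the carriers, Foxo1, Ins1, Ins2, Iapp, Xist and the Y-linked genes used for sex. A cluster was named from at least 3 markers that were 2-fold higher in it and seen in 10% of its cells, which left 2 of 23 clusters unnamed.

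For each class the UMIs of its cells were added up and given as CPM or percent. With 1 library per group no test was run. Ratios carry exact conditional binomial 95% intervals, which cover counting error only. Poisson intervals of levels, as CPM or percent, are not printed. The calculations were tested on simulated data. A gene entered a count where it had at least 100 UMIs in the class, and the fold of 1.5 stands in for a call. Members were named by UMI rank within complexes, by ratio in the 3 main classes, by range between classes, by isoform groups, by X linkage and as complex II and mt- genes, and 1 member so named is not reported here. Members, lists and markers were chosen with earlier results of these data known. Positions are from GENCODE M21. Python 3.11.15 was used.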

Additional observations from a re-analysis of the deposited data

Results flagged for a closer look

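The nuclear-encoded subunits differed in direction between cell classes. Their summed ratio of the library labelled NFKO over WT was 1.10 in enteroendocrine-like and 1.07 in Paneth-like cells and 0.943 in goblet-like cells, with counting intervals on opposite sides of 1. The difference between classes was not tested, since each library is a single pool. By complex the same split was seen for complex I (1.11 and 1.06 against 0.949 in goblet-like cells), complex III (1.09 and 1.11 against 0.941), complex IV (1.08 and 1.03 against 0.909) and complex V (1.12 and 1.09 against 0.963). Complex II was above 1 in all 3 classes. Without cluster 0 the summed ratio in goblet-like cells was 1.11. That in Paneth-like cells was 0.989 with median-of-ratios size factors.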

How the results depend on the processing

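No paired analysis was possible because the labels give 1 library per group and no shared replicate numbers. Every value compares 1 WT with 1 NFKO library, and sex and mitochondrial share differed between them, and counting intervals are far narrower than differences between settings. Class boundaries moved with the settings: the Paneth-like class held 179 WT cells, 259 with another seed and 345 with classes from marker scores. In the enteroendocrine-like, goblet-like and Paneth-like classes the mitochondrial ratio stayed below 1 under each alternative tried, and in the first the nuclear ratio stayed above 1. The goblet-like nuclear ratio stayed below 1 except without cluster 0, at 1.11, and without clusters 0 and 3, at 1.09. The Paneth-like nuclear ratio fell below 1 with median-of-ratios size factors, without mt- and the 50 most abundant genes in the total, and in male-typed cells. Removal of clusters 0, 3 or 18, the tuft-like subsets and the range of single subunits on the total without mt- and the 50 most abundant genes were chosen after seeing the data. The causes were not tested.

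In enteroendocrine-like cells the nuclear ratio of 1.1 was 1.13 with median-of-ratios size factors, 1.15 with equal weight per cell, 1.12 without mt- and the 50 most abundant genes in the total, 1.09 without mt- genes in the total, 1.1 with no mitochondrial limit, 1.09 with a 10% limit, 1.11 with doublets kept, 1.12 with another seed, 1.13 with classes from marker scores and 1.05 in male-typed cells. In enteroendocrine-like cells the mitochondrial ratio of 0.727 was 0.742 with median-of-ratios size factors, 0.697 with equal weight per cell, 0.735 without mt- and the 50 most abundant genes in the total, 0.719 with no mitochondrial limit, 0.809 with a 10% limit, 0.704 with doublets kept, 0.694 with another seed, 0.736 at resolution 1.2, 0.689 with classes from marker scores, 0.791 in male-typed cells and 0.736 without cluster 18. In enteroendocrine-like cells the members past 1.5-fold numbered 0, but 5 at the smaller fold tried and 4 in male-typed cells, where 29.1% and 14.3% of all genes passed. In goblet-like cells the nuclear ratio of 0.943 was 0.935 with median-of-ratios size factors, 0.832 with equal weight per cell, 0.962 without mt- and the 50 most abundant genes in the total, 0.933 without mt- genes in the total, 0.875 with no mitochondrial limit, 0.934 with a 10% limit, 0.892 with doublets kept, 0.892 with another seed, 0.886 at resolution 1.2, 0.885 with classes from marker scores, 0.866 in male-typed cells, 1.11 without cluster 0, 0.952 without cluster 3 and 1.09 without clusters 0 and 3. In goblet-like cells the mitochondrial ratio of 0.783 was 0.776 with median-of-ratios size factors, 0.683 with equal weight per cell, 0.798 without mt- and the 50 most abundant genes in the total, 0.745 with no mitochondrial limit, 0.844 with a 10% limit, 0.745 with doublets kept, 0.738 with another seed, 0.748 at resolution 1.2, 0.728 with classes from marker scores, 0.755 in male-typed cells, 0.859 without cluster 0, 0.853 without cluster 3 and 0.97 without clusters 0 and 3. In goblet-like cells the members past 1.5-fold numbered 0, but 3 at the smaller fold and 2 in male-typed cells, where 27.0% and 15.7% of all genes passed. In Paneth-like cells the nuclear ratio of 1.07 was 0.989 with median-of-ratios size factors, 1.01 with equal weight per cell, 0.976 without mt- and the 50 most abundant genes in the total, 1.11 with no mitochondrial limit, 1.12 with doublets kept, 1.1 at resolution 1.2, 1.247 with classes from marker scores and 0.972 in male-typed cells. In Paneth-like cells the mitochondrial ratio of 0.809 was 0.748 with median-of-ratios size factors, 0.678 with equal weight per cell, 0.739 without mt- and the 50 most abundant genes in the total, 0.975 with no mitochondrial limit, 0.791 with a 10% limit, 0.871 with doublets kept, 0.883 with another seed, 0.891 at resolution 1.2, 0.948 with classes from marker scores and 0.754 in male-typed cells. In Paneth-like cells the members past 1.5-fold numbered 0, but 14 at the smaller fold, 1 with a minimum of 1 UMI and 15 in male-typed cells, where 40.9%, 44.4% and 46.2% of all genes passed, and the last rests on 149 WT against 4 NFKO cells. The enterocyte-like over Paneth-like ratio of 8.91 in WT was 5.02 with equal weight per cell, 9.78 without mt- genes in the total, 2.29 without mt- and the 50 most abundant genes in the total, 5.2 with no mitochondrial limit, 6.25 with another seed, 6.25 at resolution 1.2 and 5.57 with classes from marker scores. The enterocyte-like over Paneth-like ratio of 9.01 in the library labelled NFKO was 5.88 with equal weight per cell, 9.68 without mt- genes in the total, 2.46 without mt- and the 50 most abundant genes in the total, 5.34 with no mitochondrial limit, 6.28 with another seed, 6.16 at resolution 1.2 and 4.53 with classes from marker scores.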
